A study of Mus musculus with 20 samples.

Results

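The 10 genes described here are the SoxF transcription factors Sox7, Sox17 and Sox18, the vascular endothelial growth factor (VEGF) receptors Kdr and Flt1, the receptor kinases Tek and Tie1, and the endothelial genes Nos3, Pecam1 and Eng. They were chosen by gene name among 27827 gene names on an Agilent mouse array, where 21 of 41174 non-control probes carried these names. SoxF proteins bind DNA through a high mobility group box and take part in the formation of arteries, veins and lymphatic vessels. Kdr is the main signalling receptor for VEGF-A, while Flt1 binds the same ligand tightly with weak kinase activity. Tek is the receptor for angiopoietins and Tie1 is its partner, which has no well established ligand. Nos3 makes nitric oxide in endothelium, Pecam1 is an adhesion protein of endothelial contacts, leukocytes and platelets, and Eng is a co-receptor for bone morphogenetic proteins and TGF-beta. The kidney holds several endothelia, among them the fenestrated cells of glomeruli and the capillaries that surround the tubules.

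Total kidney RNA of male C57BL/6 mice, 8 to 12 weeks old, was measured on 20 arrays, with 4 in each of 5 groups. Control mice had no ischemia and no hemin, and the sources used here name no sham operation in any of the 5 groups. IRI kidneys had 45 min of clamping of both renal pedicles and 6 h of reperfusion. IRI+Hemin mice received hemin at 25 mg/kg into the peritoneum 24 h ahead of this injury, IPC+IRI mice had a clamping of 15 min 7 days earlier (ischemic preconditioning, IPC), and Hemin mice received hemin, an inducer of heme oxygenase 1, without ischemia. When the Hemin mice were killed is not given in the sources used here. The labels number the samples of a group without naming animals, so p-values measure the spread between these samples.

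Each value below is a log2 level, the log2 of a gene's signal over the 75th percentile of its array, so that 0 lies at that percentile. Levels of different genes come from different probes and are not set against each other. All 10 genes were well above background, a call of the scanner software, on all 20 arrays, and no spot of theirs was saturated. Differences are log2 fold changes from limma with their standard error (SE), and genes with an adjusted p under 0.05 were called. The 4 arrays of a group shared 1 slide with no other group on it, and the slide and the group cannot be told apart. Control and IRI were scanned on the same day, as were IPC+IRI and Hemin, with IRI+Hemin on another. Of 16 other endothelial genes used to check the tissue, 15 were well above background on all 20 arrays and Clec14a on 19. In whole kidney, fewer endothelial cells and less RNA per cell cannot be told apart.

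Replicate 1 of IPC+IRI stood apart from the rest of its group. It was the lowest IPC+IRI array for 9 of the 10 genes and lay below the mean of the other three for all 10, by a median of 0.78. It also lay below them for 15 of the 16 other endothelial genes, with a median of -0.80, and for leukocyte markers, with a median of -1.18. The median over all genes was 0.06 and over proximal tubule markers 0.02. Replicate 2 of IPC+IRI lay the other way, below the mean of the other three for 1 of the 10 genes and 0 of the 16, with medians of 0.58 and 0.65. Smaller shifts were seen in other groups. Hemin replicate 2 lay below for all 10 genes and 14 of the 16 (medians -0.23 and -0.37), IRI replicate 2 for 8 and 13 (medians -0.31 and -0.25), IRI+Hemin replicate 4 for 9 and 8 (medians -0.29 and -0.06) and Control replicate 4 for 1 and 3 (medians 0.36 and 0.13). The part of these arrays in the results was not tested beyond leaving each out, and values without IPC+IRI replicate 1 stand beside most results on that group.

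**Figure D1:**
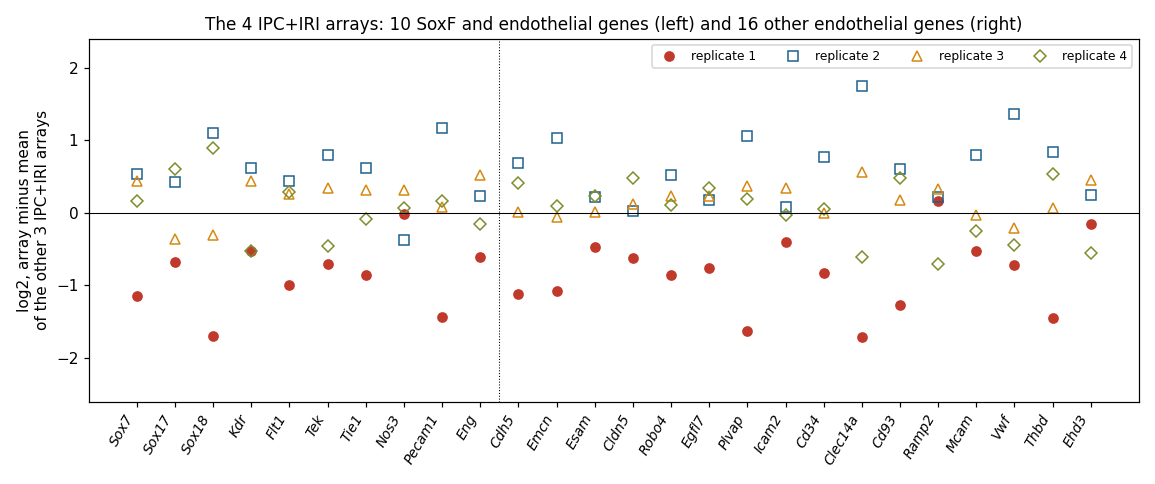
Each point is the log2 level of a gene on an IPC+IRI array minus the mean of the other 3 IPC+IRI arrays, for the 10 genes (left of the dotted line) and 16 other endothelial genes (right). The filled points, replicate 1, lie below 0 for all 10 genes and for 15 of the other 16.

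The 10 genes did not all move the same way. After IRI, Nos3 and Sox7 rose while Sox18, Tek and Kdr fell. In IRI+Hemin, Flt1 and Kdr were higher than in IRI and Sox7 was lower. In IPC+IRI, Sox18, Tie1, Pecam1, Sox7, Tek and Nos3 were lower than in IRI, and Sox18 had its lowest level. In Hemin vs Control none of the 10 was called by its gene level, while single probes of Tek and Sox7 passed, as given with these genes. The result of the Sox7 probe rests on Control values not well above background.

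These counts stand against widespread change on the array. In IRI vs Control, 2 of the 10 genes were called higher and 3 lower, while 17.1% of all genes tested were called higher and 33.9% lower, so the members' counts were near those of the array. In IRI+Hemin vs Control, 3 were higher and 2 lower, against 24.4% and 33.2% of all genes. The split depended on the scaling, at 5 higher and 0 lower without normalization between arrays and 2 higher and 3 lower with normexp background correction. In IPC+IRI vs Control 2 were higher and 4 lower, against 23.3% and 32.8%, and 3 were higher and 4 lower without IPC+IRI replicate 1, against 23% and 31.3%. In IRI+Hemin vs IRI, 2 were higher and 1 lower, against 26.3% and 18.1% of all genes. In IPC+IRI vs IRI, 6 of the 10 genes were lower, where 17.8% of all genes were called lower and 26.3% higher. The median change of the 10 genes in that comparison was -0.61, and that of all genes tested was 0.09. Without normalization between arrays the split was 1 higher and 1 lower. Leaving out IPC+IRI replicate 1, 4 of the 10 were lower and 1 was higher, against 16% and 23.9% of all genes.

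Among hemin-treated mice, IRI+Hemin vs Hemin gave 2 genes higher and 1 lower, against 16.5% and 27.9% of all genes. IPC+IRI vs Hemin, within a scan day, gave 1 higher and 4 lower, against 13.2% and 22.8%. Without IPC+IRI replicate 1 it gave 2 higher and 2 lower, against 13.6% and 21.8%. The injured groups with a protective treatment, IPC+IRI vs IRI+Hemin, differed in 4 of the 10 genes, all lower, where 5.63% of all genes were called lower and 6.43% higher. This count was 2 without IPC+IRI replicate 1, with 4% of all genes called lower. In Hemin vs Control, limma called 0 of the 10 while 18.5% of all genes were called higher and 17.6% lower, 2 of the 10 had an unadjusted p below 0.05, and SAM, the test named in the study's methods, called 0.

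**Figure D2:**
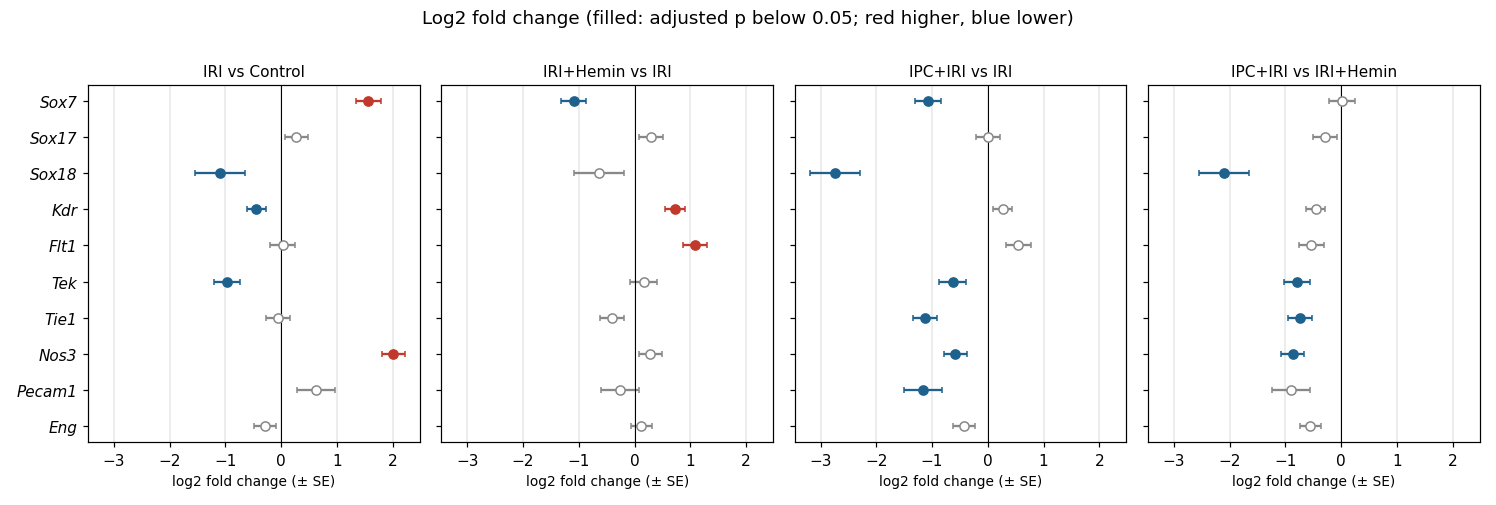
Points are log2 fold changes of the 10 genes in 4 comparisons and bars are SE, with filled points at an adjusted p below 0.05 (red higher, blue lower). Sox7 and Nos3 lie far to the right in IRI vs Control, and the filled points of IPC+IRI vs IRI all lie left of 0.

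Sox7 rose after IRI and was lower in both IRI+Hemin and IPC+IRI than in IRI. Its level was -3.22, -3.60, -3.47 and -3.04 in Control and -1.82, -1.84, -1.56 and -1.86 in IRI. The IRI arrays did not overlap with Control and were higher by 1.57 (SE 0.23, 2.96-fold, adjusted p = 2.7e-05). The call held in all 12 alternative settings, whose values ran from 0.66 to 1.91. The highest came with the mean of log2 over probes and is not exact, since 1 Sox7 probe was well above background on 0 of 4 Control arrays. In IRI+Hemin the level was -3.06, -2.34, -2.92 and -3.14, and in IPC+IRI it was -3.70, -2.44, -2.51 and -2.72. Hemin alone gave -3.13, -3.47, -3.06 and -3.11. Every array of these 3 groups lay below every IRI array. Against the same IRI arrays, IRI+Hemin was lower, with a log2 fold change of -1.09 (SE 0.23, adjusted p = 0.0011) and IPC+IRI likewise with -1.07 (SE 0.23, adjusted p = 0.0012), or -0.79 without its replicate 1 (adjusted p = 0.0026). Both calls were lost without normalization between arrays (-0.73 and -0.76) and with SAM, the former also with the deposited log2 matrix (-0.96) and the latter with the mean of log2 over probes (-0.63).

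The test of the interaction asked whether the effect of IRI on Sox7 differed with hemin. IRI vs Control was 1.57 and IRI+Hemin vs Hemin was 0.33 (adjusted p = 0.26), and the difference of these effects was -1.24 (SE 0.33, adjusted p = 0.027). Sox7 was 1 of the 10 genes called in the interaction, and it was called lower, as were 1.96% of all genes, while 5.83% were called higher. The call was lost without any 1 of 6 arrays, Control replicate 2, IRI replicate 3, Hemin replicates 1 and 3 or IRI+Hemin replicates 1 and 4, at values from -1.22 to -1.14. It was also lost with normexp background correction (-0.48), without normalization between arrays (-1.44) and with the deposited log2 matrix (-0.24). Without IPC+IRI replicate 1, Sox7 in IPC+IRI was higher than in Control by 0.78 (adjusted p = 0.0016), where all 4 arrays gave 0.49 (adjusted p = 0.079). IRI+Hemin vs Control was 0.47 (adjusted p = 0.09) and was called without normalization between arrays (0.96), with quantile normalization (0.72) and with the mean of log2 over probes (1.15, adjusted p = 0.0011). IPC+IRI vs Control was called in the same settings, at 0.93, 0.72 and 1.28 (adjusted p = 0.00045 for the last). The mean of log2 over probes gives equal weight to a Sox7 probe well above background on 0 of 4 Control arrays. The values of 1.15 and 1.28 are therefore not exact, and their adjusted p rests on such Control values.

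**Figure D3:**
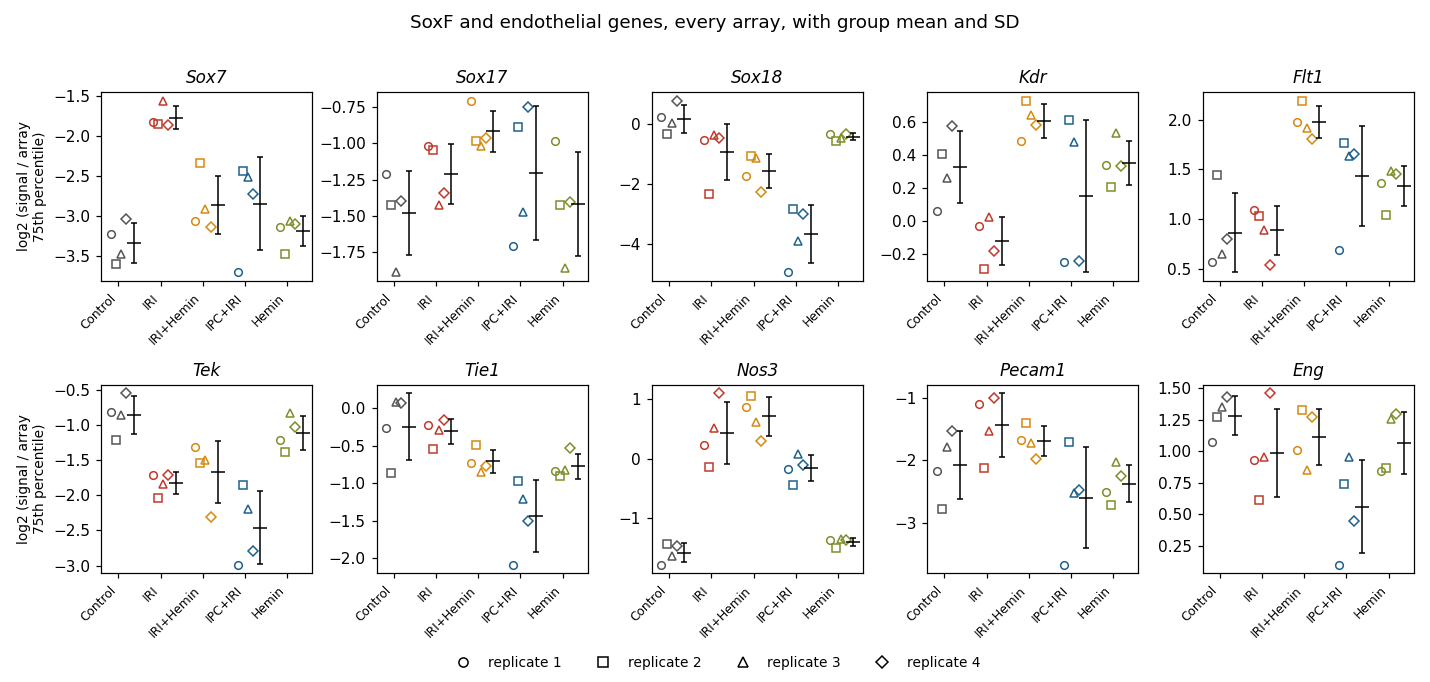
Each panel shows the log2 level of a gene on the 20 arrays by group, with a marker shape per replicate number and the group mean with its SD in black. The IRI points of Sox7 lie above all points of the other groups, and the IPC+IRI points of Sox18 lie below all points of the other groups.

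Sox7 was measured by 2 probes whose changes differed in the treated groups. The start of each 60-base probe is shown here because the gene's account depends on which is read, with the mm9 coordinates that the array files give for it, which name no exon. Over single probes, 48.6% passed an adjusted p of 0.05 in IRI vs Control, 46.9% in IRI+Hemin vs IRI and 36.4% in Hemin vs Control.
Sox7 probe A_51_P476018, chr14:64569419-64569478: agtcccggatggatattaataatctcgtga
Sox7 probe A_52_P644005, chr14:64563196-64563255: cagaaagagatattgtcacagagaaaaaga
The first, well above background on all arrays, rose by 1.45 in IRI vs Control (SE 0.25, adjusted p = 0.00014) and differed from Control by 0.18 in IRI+Hemin and 0.06 in IPC+IRI, where it was not called. The second was well above background on 0 of 4 Control arrays and on all 4 of every other group. With Control set at the lowest signal that any probe had well above background, it was 2.08-fold higher than Control in IRI. It was 1.75-fold higher in IRI+Hemin, 2.28-fold in IPC+IRI and 1.09-fold in Hemin. These are not strict lower limits. Flt1 probe A_52_P405145, well above background on 0 of 4 Control arrays, reached -4.43 there, while the set Control level was -4.70. The adjusted p of 0.0036 (limma) for the second Sox7 probe in Hemin vs Control rests on Control values not well above background. On this probe IRI+Hemin vs IRI was -0.25 (adjusted p = 0.58) and IPC+IRI vs IRI 0.13 (adjusted p = 0.77), where the first probe gave -1.27 (adjusted p = 0.00061) and -1.39 (adjusted p = 0.00028). Leaving out replicate 1 of IPC+IRI, IPC+IRI vs IRI was 0.36 on the second probe (adjusted p = 0.43) and -1.08 on the first (adjusted p = 0.00048), and the first differed from Control by 0.37 (adjusted p = 0.12). Which transcripts the probes detect was not tested.

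Sox17 was called in 1 of the 10 comparisons. Its level was -1.21, -1.42, -1.89 and -1.40 in Control, -1.02, -1.05, -1.43 and -1.34 in IRI, and -0.71, -0.98, -1.02 and -0.96 in IRI+Hemin. It was -1.71, -0.89, -1.47 and -0.75 in IPC+IRI and -0.98, -1.42, -1.86 and -1.41 in Hemin, and both ranges overlapped with Control. IRI+Hemin arrays all lay above Control, by 0.56 (SE 0.21, 1.48-fold, adjusted p = 0.03). The call was lost without Control replicate 3 (0.43) or IRI+Hemin replicate 1 (0.49), and in 5 of 12 alternative settings. In IRI vs Control the change was 0.27 with a 95% interval from -0.17 to 0.72, and in IPC+IRI vs IRI 0.01 with an interval from -0.44 to 0.45, or 0.17 without IPC+IRI replicate 1. Of its 4 probes, 2 were well above background on all arrays and the others on at most 1 array. The bright probes parted in IPC+IRI vs IRI, at -0.55 (adjusted p = 0.027) for A_51_P273667 and 0.42 (adjusted p = 0.16) for A_52_P279368, though without IPC+IRI replicate 1 neither passed, at -0.37 (adjusted p = 0.11) and 0.59 (adjusted p = 0.065).

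Sox18, the SoxF gene whose loss in mice is known for defects of lymphatic vessels and hair, had its lowest level after preconditioning and IRI. Its level was 0.23, -0.33, 0.05 and 0.78 in Control, and -0.33, -0.57, -0.47 and -0.32 in Hemin. It was -0.53, -2.32, -0.36 and -0.47 in IRI, and -1.74, -1.08, -1.13 and -2.28 in IRI+Hemin. In IPC+IRI it was -4.94, -2.84, -3.89 and -2.99, so that each of these arrays lay below the other 16. The fall was 6.71-fold against IRI (-2.75, SE 0.45, adjusted p = 0.00013), 4.31-fold against IRI+Hemin (-2.11, SE 0.45, adjusted p = 0.0066) and 9.47-fold against Hemin, scanned on the same day (-3.24, SE 0.45, adjusted p = 3.5e-05). Without IPC+IRI replicate 1 these differences were -2.32 (adjusted p = 0.00049), -1.68 (adjusted p = 0.02) and -2.82 (adjusted p = 8.7e-05). The difference from IRI+Hemin was -0.78 with normexp background correction (adjusted p = 0.06) and was also not called with the compared arrays alone or with SAM, while those from IRI and from Hemin held in all 12 alternative settings, at -2.97 to -1.41 and -3.47 to -1.71.

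The order of the group means of Sox18 was Control, Hemin, IRI, IRI+Hemin and IPC+IRI from high to low. Control and Hemin overlapped (adjusted p = 0.31), as did IRI and IRI+Hemin (adjusted p = 0.26). IRI lay below Control on every array, by -1.10 (SE 0.45, adjusted p = 0.048). That call rests on few arrays, since IRI replicate 2 lay far below the other three. Without it the change was -0.64 (adjusted p = 0.2), and the call was also lost without Control replicate 1, 3 or 4 and in 6 of 12 alternative settings. Without IRI replicate 2, IRI+Hemin vs IRI was -1.10 (adjusted p = 0.036). IRI+Hemin vs Control was -1.74 (SE 0.45, adjusted p = 0.0031), a call lost without normalization between arrays (-1.25) and with SAM. IRI+Hemin vs Hemin was -1.13 (adjusted p = 0.048), a call lost without any 1 of the 4 Hemin arrays or IRI+Hemin replicate 1 or 4, at values from -1.18 to -0.89, and in 6 of 12 alternative settings. A single probe measures the gene, so no second probe bears on it.
Sox18 probe A_51_P472274, chr2:181404789-181404848, first 30 of 60 bases: cttcctttcgcatatgtatgttagggtatg

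The VEGF receptors were higher in IRI+Hemin than in IRI. Kdr was 0.06, 0.41, 0.26 and 0.58 in Control and -0.03, -0.29, 0.03 and -0.18 in IRI, without overlap, and the fall was -0.44 (SE 0.17, 1.36-fold, adjusted p = 0.039). In IRI+Hemin it was 0.48, 0.73, 0.64 and 0.58, above every IRI array by 0.73 (SE 0.17, 1.65-fold, adjusted p = 0.0026). IPC+IRI was split, with replicates 1 and 4 at -0.24 and replicates 2 and 3 at 0.61 and 0.48. Its difference from IRI was 0.27 (adjusted p = 0.22), and 0.40 without replicate 1 (adjusted p = 0.073). Hemin, at 0.34, 0.21, 0.53 and 0.33, lay within the range of Control. The fall in IRI lost its call in 6 of 12 alternative settings and without 6 of the 8 arrays in turn, all but Control replicate 1 and IRI replicate 3, at values from -0.47 to -0.36. The rise in IRI+Hemin vs IRI held without each array (0.67 to 0.77) and fell to 0.17 with the mean of log2 over probes, which gives a probe not well above background on any array the same weight as the bright one. It was 0.23 with the deposited log2 matrix, and SAM did not call it.

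Flt1 was 0.57, 1.44, 0.65 and 0.80 in Control and 1.09, 1.03, 0.89 and 0.54 in IRI, which overlapped. In IRI+Hemin it was 1.98, 2.19, 1.91 and 1.81, above every other array of the series. The difference was 1.08 against IRI (SE 0.22, 2.12-fold, adjusted p = 0.00081), 1.11 against Control (SE 0.22, adjusted p = 4.0e-04) and 0.64 against Hemin (SE 0.22, adjusted p = 0.027). The last of these lost its call without Hemin replicate 2 (0.54), IRI+Hemin replicate 1 (0.63) or IRI+Hemin replicate 2 (0.56). The first fell to 0.21 with the mean of log2 over probes (adjusted p = 0.35). The call against Control was lost in that setting too (0.21) and with SAM, and the call against Hemin without normalization between arrays (0.55), with the deposited log2 matrix (0.74) and with SAM. Hemin alone gave 1.36, 1.04, 1.48 and 1.45, and overlapped with Control only through Control replicate 2 (0.47, adjusted p = 0.1; 0.66 without that array, adjusted p = 0.02).

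In IPC+IRI, Flt1 was 0.69, 1.77, 1.63 and 1.66, so that replicate 1 lay at the level of IRI and the others above it. IPC+IRI vs IRI was 0.55 (SE 0.22, adjusted p = 0.052), and 0.80 without replicate 1 (adjusted p = 0.0031). It was called in 4 of 12 alternative settings, such as without normalization between arrays (0.86). IPC+IRI vs Control was 0.57 (adjusted p = 0.036) and 0.82 without that array (adjusted p = 0.0014). This call was lost without any 1 of the other 3 IPC+IRI arrays or of Control replicates 1, 3 and 4, at values from 0.46 to 0.55. It was also lost with normexp background correction (0.51), scaling to the probes well above background (0.46), quantile normalization (0.47), the compared arrays alone and SAM. Its direction turned with the mean of log2 over probes (-0.19, adjusted p = 0.39), where the 2 Flt1 probes well above background on at most 1 array carry the weight of the others.

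Flt1 has 3 probes well above background on all arrays, and 2 of them are shown because their changes parted.
Flt1 probe A_51_P398723, chr5:148373791-148373850: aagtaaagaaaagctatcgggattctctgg
Flt1 probe A_52_P307922, chr5:148449781-148449840: caccaagctttgatggcattcaaagatgtc
The first changed by -0.07 in IRI vs Control (adjusted p = 0.82) and by 1.30 in IRI+Hemin vs IRI (adjusted p = 2.0e-04). The second changed by 0.78 in IRI vs Control (adjusted p = 0.05038) and by 0.56 in IRI+Hemin vs IRI (adjusted p = 0.16). The other probe, A_52_P520859, changed by 0.58 in IRI+Hemin vs IRI (adjusted p = 0.062). In Hemin vs Control the first gave 0.58 (adjusted p = 0.053) and the second -0.31 (adjusted p = 0.48). On the second probe the 4 IRI arrays ran from 0.21 to 1.02 and the 4 Control arrays from -0.13 to -0.04. The first was higher in IPC+IRI vs IRI by 0.71 (adjusted p = 0.016) and A_52_P520859 by 0.66 (adjusted p = 0.036), while the second gave -0.51 (adjusted p = 0.2). These were, with IPC+IRI replicate 1 left out, 0.95 (adjusted p = 0.0015), 0.89 (adjusted p = 0.0063) and -0.09 (adjusted p = 0.79). The difference between probes was not itself tested.

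**Figure D4:**
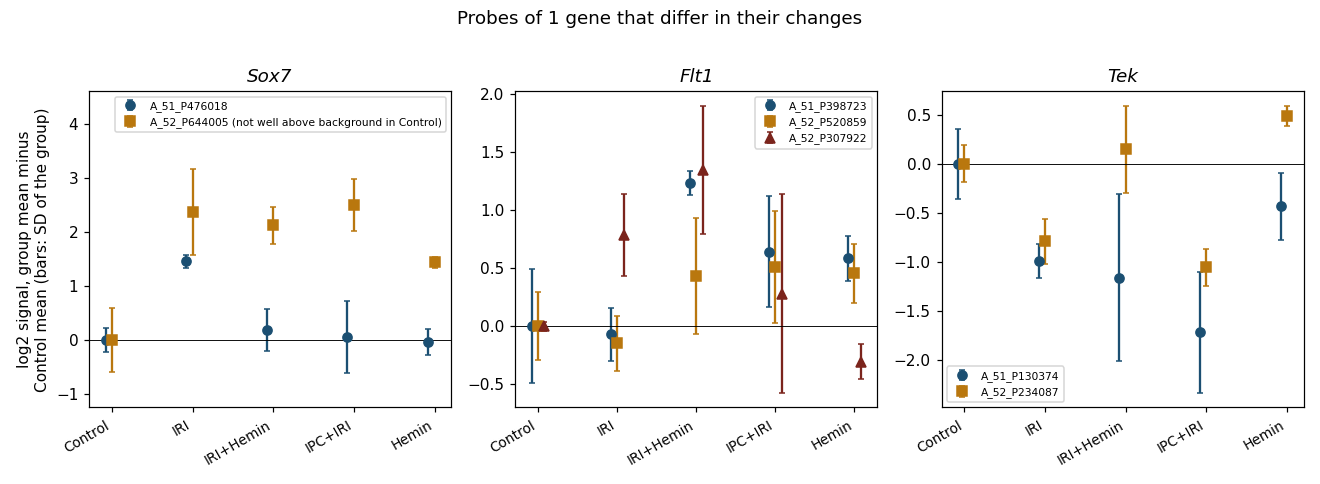
Points are group means of log2 signal minus the Control mean for single probes of Sox7, Flt1 and Tek, and bars are the SD of the group over 4 arrays. Probe A_52_P644005 of Sox7 stays above Control in every treated group, while A_51_P476018 lies 1.45 above Control in IRI and within 0.18 of it in the other groups. Since A_52_P644005 was well above background on 0 of 4 Control arrays, its distances from Control are not exact.

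Tek, by its gene level, was lower than Control in every injured group. Its level was -0.81, -1.21, -0.86 and -0.55 in Control and -1.21, -1.39, -0.83 and -1.03 in Hemin. It was -1.71, -2.05, -1.83 and -1.72 in IRI, -1.31, -1.54, -1.50 and -2.31 in IRI+Hemin, and -2.99, -1.86, -2.20 and -2.80 in IPC+IRI. All arrays of the injured groups lay below all Control arrays, while IRI+Hemin overlapped with Hemin (-0.55, adjusted p = 0.069). The fall from Control was -0.97 in IRI (SE 0.24, 1.96-fold, adjusted p = 0.0025), -0.81 in IRI+Hemin (SE 0.24, adjusted p = 0.0078) and -1.60 in IPC+IRI (SE 0.24, 3.03-fold, adjusted p = 2.6e-05). Each of these calls held without each array in turn, and the last was -1.43 without IPC+IRI replicate 1 (adjusted p = 0.00012). The call in IRI was lost with normexp background correction (-0.43) and without normalization between arrays (-0.85), and that in IRI+Hemin without normalization (-0.32) and with SAM. The call in IPC+IRI was lost with SAM alone of the 12 settings.

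IPC+IRI was lower than Hemin in Tek by -1.34 (adjusted p = 0.00033) and by -1.17 without IPC+IRI replicate 1 (adjusted p = 0.0012). It was also lower than IRI, by -0.63 (adjusted p = 0.038), and than IRI+Hemin, by -0.79 (adjusted p = 0.037). Without IPC+IRI replicate 1 these were -0.46 (adjusted p = 0.14) and -0.62 (adjusted p = 0.11), and each was also lost without 4 other arrays. These are IPC+IRI replicate 4 for both, IRI replicates 1, 3 and 4 for the former and IRI+Hemin replicates 1, 2 and 3 for the latter. The call against IRI was lost in 6 of 12 alternative settings, at -0.32 without normalization between arrays, and that against IRI+Hemin in 7, at -0.43 with normexp background correction. The 2 probes of Tek, both well above background on all arrays, parted in the hemin groups.
Tek probe A_51_P130374, chr4:94540861-94540919: ctctaatgtgactgtatatactgctcggag
Tek probe A_52_P234087, chr4:94408487-94408546: agttctcatagaacttagcagtgttacccc
The first gave -1.16 in IRI+Hemin vs Control (adjusted p = 0.0079) and -0.17 in IRI+Hemin vs IRI (adjusted p = 0.71). The second gave 0.15 (adjusted p = 0.51) and 0.94 (adjusted p = 0.00044). In Hemin vs Control the first gave -0.44 (adjusted p = 0.34) and the second 0.49 (adjusted p = 0.043). Both were lower in IRI vs Control, at -0.99 (adjusted p = 0.023) and -0.79 (adjusted p = 0.0014), and in IPC+IRI vs Control, at -1.72 (adjusted p = 4.0e-04) and -1.06 (adjusted p = 9.2e-05). Neither passed in IPC+IRI vs IRI, at -0.73 (adjusted p = 0.09) and -0.27 (adjusted p = 0.23), nor without IPC+IRI replicate 1, where the falls from Control were -1.51 (adjusted p = 0.002) and -0.99 (adjusted p = 0.00046).

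Tie1 was lower in IPC+IRI than in each other group. Its level was -0.27, -0.87, 0.09 and 0.07 in Control, -0.23, -0.55, -0.29 and -0.16 in IRI, and -0.73, -0.49, -0.85 and -0.76 in IRI+Hemin. It was -0.83, -0.90, -0.82 and -0.53 in Hemin and -2.08, -0.97, -1.20 and -1.50 in IPC+IRI. The 4 IPC+IRI arrays lay below the other 16. IPC+IRI vs IRI was -1.13 (SE 0.22, 2.19-fold, adjusted p = 0.00047) and IPC+IRI vs Control -1.19 (SE 0.22, adjusted p = 0.00016). Without IPC+IRI replicate 1 these were -0.92 (adjusted p = 0.0016) and -0.98 (adjusted p = 0.00053). Both calls were lost without normalization between arrays (-0.82 and -0.76) and with SAM. Against Hemin the difference was -0.67 (adjusted p = 0.022) and against IRI+Hemin -0.73 (adjusted p = 0.035). Without replicate 1 these fell short of the threshold at -0.46 (adjusted p = 0.081) and -0.52 (adjusted p = 0.11). The former was also lost without Hemin replicate 4 (-0.59), and the latter without IPC+IRI replicate 4 or IRI+Hemin replicates 1, 2 or 4, at values from -0.75 to -0.66. The difference from Hemin lost its call in 3 of the 11 alternative settings that gave a value and that from IRI+Hemin in 7 of 12, at -0.43 and -0.42 with normexp background correction. IRI alone left Tie1 at -0.06 from Control, with a 95% interval from -0.51 to 0.39. Hemin vs Control was -0.53 (adjusted p = 0.065), and -0.73 without Control replicate 2 (adjusted p = 0.0077).

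Nos3 rose most among the 10 genes after IRI. Its level was -1.78, -1.43, -1.63 and -1.47 in Control and -1.37, -1.49, -1.36 and -1.36 in Hemin. In IRI it was 0.24, -0.15, 0.52 and 1.10, in IRI+Hemin 0.87, 1.06, 0.62 and 0.29, and in IPC+IRI -0.17, -0.44, 0.07 and -0.10. All 12 arrays of injured kidneys lay above all 8 arrays of the others. IRI vs Control was 2.01 (SE 0.21, 4.02-fold, adjusted p = 6.1e-07), IRI+Hemin vs Control 2.29 (SE 0.21, 4.89-fold, adjusted p = 1.5e-07) and IPC+IRI vs Control 1.42 (SE 0.21, 2.67-fold, adjusted p = 2.15e-05). IRI+Hemin vs Hemin was 2.11 (SE 0.21, adjusted p = 7.7e-07) and IPC+IRI vs Hemin 1.24 (SE 0.21, adjusted p = 2.0e-04). Each of these 5 calls held without each array in turn and in all 12 alternative settings. Leaving out IPC+IRI replicate 1, the differences of that group were 1.42 from Control (adjusted p = 8.3e-05) and 1.24 from Hemin (adjusted p = 0.00057).

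Nos3 was lower in IPC+IRI than in the other injured groups. IPC+IRI was lower than IRI+Hemin on every array, by -0.87 (SE 0.21, 1.83-fold, adjusted p = 0.012), and by -0.87 without IPC+IRI replicate 1 (adjusted p = 0.026), a call lost without normalization between arrays (-0.92) and with SAM. IPC+IRI vs IRI was -0.59 (SE 0.21, adjusted p = 0.028), with overlapping arrays. That call was lost without IPC+IRI replicate 1 (-0.58) or 2 (-0.49) and without IRI replicate 3 (-0.56) or 4 (-0.36), and likewise without normalization between arrays (-0.27), with the compared arrays alone and with SAM. Nos3 was the member for which IPC+IRI replicate 1 was not the lowest array. The interaction of hemin and IRI was 0.10 with a 95% interval from -0.51 to 0.72.

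Pecam1 was -2.18, -2.79, -1.80 and -1.54 in Control, -1.11, -2.13, -1.54 and -1.003 in IRI, and -1.67, -1.41, -1.73 and -1.98 in IRI+Hemin. It was -2.51, -2.71, -2.03 and -2.26 in Hemin and -3.67, -1.72, -2.53 and -2.48 in IPC+IRI. Only IPC+IRI vs IRI passed, at -1.16 (SE 0.34, 2.23-fold, adjusted p = 0.011) with overlapping arrays. Without IPC+IRI replicate 1 it was -0.80 (adjusted p = 0.044), and the call was lost with the mean of log2 over probes (-0.59), without normalization between arrays (-0.84) and with SAM. IRI vs Control was 0.63 with a 95% interval from -0.09 to 1.35. Pecam1 is also carried by leukocytes and platelets. In IRI vs Control 3 of 7 leukocyte and 2 of 5 platelet markers were higher, where 17.1% of all genes were. The part of those cells in the level of Pecam1 was not tested.

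Eng was 1.07, 1.27, 1.35 and 1.43 in Control, 0.93, 0.62, 0.95 and 1.46 in IRI, and 0.10, 0.74, 0.95 and 0.45 in IPC+IRI. It was 1.01, 1.32, 0.85 and 1.27 in IRI+Hemin and 0.85, 0.86, 1.25 and 1.30 in Hemin, both overlapping with Control. IPC+IRI lay below Control on every array, by -0.72 (SE 0.19, 1.65-fold, adjusted p = 0.004), and by -0.57 without IPC+IRI replicate 1 (adjusted p = 0.018). The call was lost with normexp background correction (-0.49), without normalization between arrays (-0.28) and with SAM. Against Hemin the difference was -0.50 (adjusted p = 0.048), which was lost in 9 of 12 alternative settings and without IPC+IRI replicates 1, 2 or 4 or Hemin replicates 3 or 4, at values from -0.56 to -0.35. IRI vs Control and IRI+Hemin vs IRI were not called for Eng, at -0.29 and 0.12, nor was IPC+IRI vs IRI (-0.43, adjusted p = 0.078). This last value was -0.27 without IPC+IRI replicate 1 (adjusted p = 0.26), and it was called without IPC+IRI replicate 3 (-0.56, adjusted p = 0.033) or IRI replicate 2 (-0.55, adjusted p = 0.034).

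Tek, Tie1 and Eng were each lower in IPC+IRI than in Control, and their upstream sequence is printed because they fell together. The letters are the 250 bases before the annotated start, from RefSeq on GRCm38.p6, 5′ to 3′ on the gene's strand, and promoters of 5 of the 10 genes (Kdr, Flt1, Tek, Tie1 and Eng) were in the table used. Capitals mark 3 short motifs searched on both strands, ACAAT and ACAAAG, which resemble the core that Sox proteins bind, and GGAAG, which holds the core of ETS factors. No base lay in more than 1 motif.
Tek, chr4:94739039-94739288, plus strand: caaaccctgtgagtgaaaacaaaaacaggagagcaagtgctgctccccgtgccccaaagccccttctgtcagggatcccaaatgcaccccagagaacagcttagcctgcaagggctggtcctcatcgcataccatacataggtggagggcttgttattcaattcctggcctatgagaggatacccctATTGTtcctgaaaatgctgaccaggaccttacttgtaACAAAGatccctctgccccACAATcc
Tie1, chr4:118489850-118490099, minus strand: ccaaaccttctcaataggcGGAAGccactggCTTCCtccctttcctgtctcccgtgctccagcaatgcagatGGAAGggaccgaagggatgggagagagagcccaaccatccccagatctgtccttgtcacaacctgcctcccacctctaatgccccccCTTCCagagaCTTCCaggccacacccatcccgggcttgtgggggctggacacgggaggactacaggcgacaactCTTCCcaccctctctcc
Eng, chr2:32646345-32646594, plus strand: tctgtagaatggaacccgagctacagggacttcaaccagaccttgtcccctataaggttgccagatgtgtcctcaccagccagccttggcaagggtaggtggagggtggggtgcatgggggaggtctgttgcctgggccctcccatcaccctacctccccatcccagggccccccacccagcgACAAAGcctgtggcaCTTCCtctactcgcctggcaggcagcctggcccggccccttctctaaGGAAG
The Tek window held ACAAT at 2 places and ACAAAG at 1 within 63 bases of the start, the Tie1 window held GGAAG at 6, and the Eng window held ACAAAG at 1 and GGAAG at 2. Over 32851 promoters of this length in the table, 27.7% held ACAAT, 16.5% ACAAAG and 64.1% GGAAG. The window of Kdr held GGAAG at 1 place and that of Flt1 at 3, with neither ACAAT nor ACAAAG, and these genes were not called lower in IPC+IRI vs Control. The window of Tie1, which was lower, held neither as well. A match describes letters and shows no binding.

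Calls of the other endothelial genes also went both ways. In IRI vs Control, 6 of 16 rose, 3 fell and 7 were not called, where 17.1% of all genes were higher and 33.9% lower. Their median was 0.24 where all genes tested had -0.17. Thbd, which encodes thrombomodulin, rose by 2.42 (adjusted p = 5.9e-06), the lectin-like receptor gene Cd93 by 2.36 (adjusted p = 1.3e-06), the adhesion gene Mcam by 1.51 (adjusted p = 2.8e-05) and Cdh5, the cadherin of endothelial junctions, by 1.39 (adjusted p = 0.00041). Clec14a, a surface lectin-like gene of endothelium, changed by -1.75 (adjusted p = 0.001) and Ehd3, enriched in glomerular endothelium, by -1.21 (adjusted p = 7.8e-06). The summed linear level of the 16 ran from 46.2 to 57.7 in Control, from 62.7 to 76.5 in IRI, from 67.9 to 79.0 in IRI+Hemin, from 52.0 to 71.5 in Hemin and from 31.8 to 71.7 in IPC+IRI, each a sum of signals over the array's 75th percentile.

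In IPC+IRI vs IRI, 6 of these 16 genes fell and 1 rose, where 17.8% of all genes were lower and 26.3% higher, and their median was -0.19 against 0.09 for all genes. Cdh5 fell by 1.54 (log2, adjusted p = 0.00027), Plvap, the protein of fenestral diaphragms, by 1.33 (adjusted p = 0.0019), the secreted Egfl7 by 0.99 (adjusted p = 0.00025) and Mcam by 0.97 (adjusted p = 0.002), while Ehd3 rose by 0.67 (adjusted p = 0.0024). With IPC+IRI replicate 1 left out, 5 fell and 1 rose, against 16% and 23.9% of all genes, with a median of 0.02. In IRI+Hemin vs IRI, 3 of the 16 rose and 2 fell, against 26.3% and 18.1% of all genes, with a median of -0.08 where all genes had 0.08. Among them were Cdh5 at -1.30 (adjusted p = 0.0011), Ehd3 at 0.82 (adjusted p = 0.00055), Ramp2, a partner of the adrenomedullin receptor, at 0.74 (adjusted p = 0.0021) and Emcn, an endothelial sialomucin, at 0.72 (adjusted p = 0.022). Esam, a gene of endothelial junctions, was the member of this list called in the interaction (-0.70, adjusted p = 0.035).

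**Figure D5:**
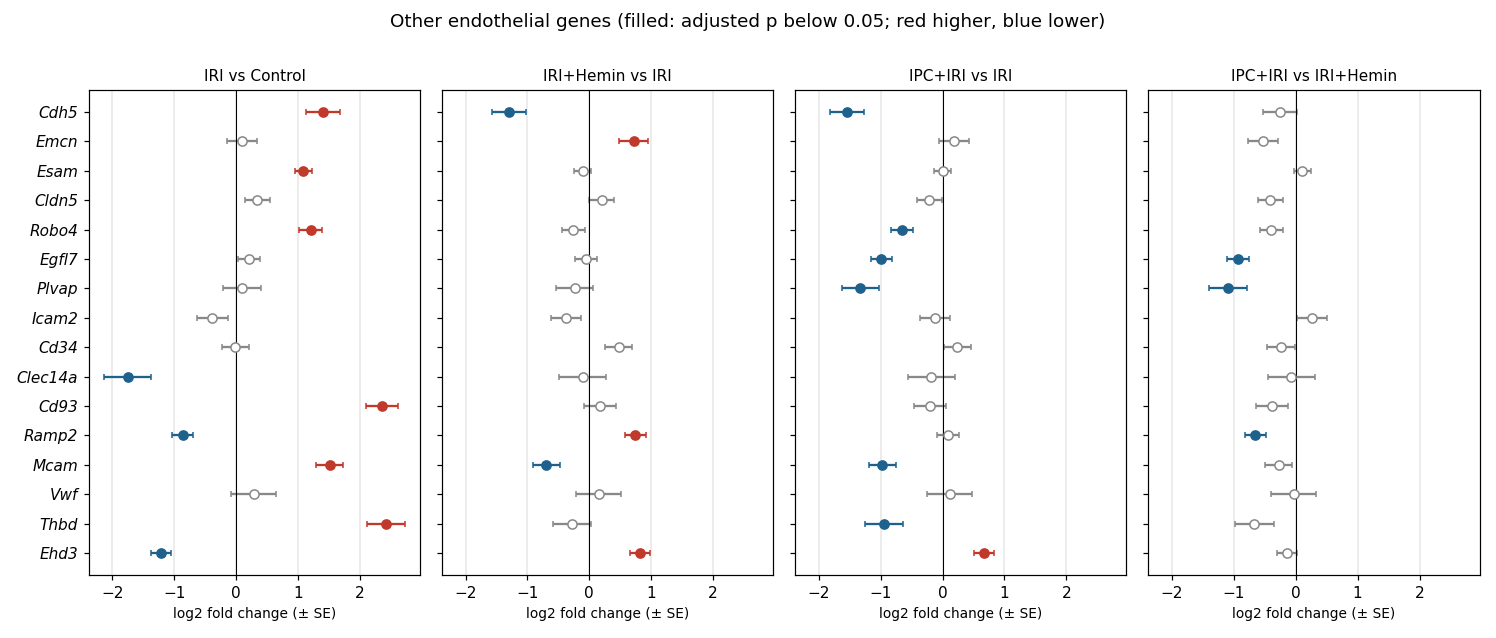
Points are log2 fold changes of 16 other endothelial genes in 4 comparisons and bars are SE, with filled points at an adjusted p below 0.05 (red higher, blue lower). Thbd and Cd93 lie at 2.42 and 2.36 in IRI vs Control, Clec14a at -1.75, and Cdh5 lies at 1.39 there and at -1.54 for IPC+IRI vs IRI.

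In a list of ligands and partners of the VEGF and angiopoietin receptors, which also held Angptl4, 2 of 11 genes rose in IRI vs Control and 4 fell. Their median was -0.20, where 17.1% of all genes tested were higher and 33.9% lower with a median of -0.17. Angptl4, an inhibitor of lipoprotein lipase, rose by 2.12 (adjusted p = 5.8e-05) and the co-receptor Nrp2 by 0.76 (adjusted p = 0.023). Vegfc, a ligand of lymphatic growth, changed by -0.87 (adjusted p = 5.7e-05) and Vegfb by -0.71 (adjusted p = 0.0053). Ptprb, the endothelial phosphatase that acts on Tek, was not called in IRI vs Control (-0.47, adjusted p = 0.14). It was higher in IRI+Hemin vs IRI by 2.41 (SE 0.26, adjusted p = 3.7e-06) and in IPC+IRI vs IRI by 1.77 (SE 0.26, adjusted p = 5.7e-05), which share the IRI arrays, and its interaction was 1.57 (adjusted p = 0.014). Of the 11, 3 were higher and 0 lower in IPC+IRI vs IRI, where 26.3% of all genes were higher and 17.8% lower, so the share higher was that of the array, and 2 were higher and 1 lower without IPC+IRI replicate 1.

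In the list of genes around Eng, 5 of 11 tested rose in IRI vs Control and 1 fell, against 17.1% and 33.9% of all genes. Their median was 0.52, and that of all genes was -0.17. Smad1, which carries the signal of this receptor complex, rose by 1.26 (adjusted p = 0.00022), the receptor Tgfbr2 by 1.02 (adjusted p = 6.1e-05) and Tgfb1 by 0.83 (adjusted p = 0.019), and the endothelial receptor Acvrl1 fell by 0.91 (log2, adjusted p = 0.0067). In IPC+IRI vs IRI, Tgfb1 was at -1.71 (adjusted p = 0.00013) and Acvrl1 at 0.68 (adjusted p = 0.041), within 2 higher and 2 lower of 11 (26.3% and 17.8% over all genes), with the same counts without IPC+IRI replicate 1. Of 9 genes listed around Nos3, its regulation and its product, 3 rose and 2 fell in IRI vs Control, against 17.1% and 33.9% of all genes. Their median was -0.15, beside the same -0.17. Nostrin, a trafficking partner of Nos3, rose by 1.17 (adjusted p = 0.00015) and Nosip by 0.31 (adjusted p = 0.024). The subunits of the nitric oxide receptor guanylate cyclase changed by -1.54 for Gucy1a3 (adjusted p = 0.00023) and -0.74 for Gucy1b3 (adjusted p = 0.0076). Gucy1a3 was higher in IRI+Hemin vs IRI by 1.59 (adjusted p = 0.00028), and its interaction was 1.93 (adjusted p = 0.0073).

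Notch signalling acts with SoxF factors in arterial vessels. In IPC+IRI vs IRI, 5 of 9 genes of this pathway in vessels were lower and the other 4 were not called, where 17.8% of all genes were lower and 26.3% higher, with a median of -0.73 against 0.09 for all genes. The ligands Dll1 and Jag1 were at -1.16 each (adjusted p = 2.6e-05 and 2.7e-05), the target Hes1 at -0.87 (adjusted p = 0.0033) and the venous receptor Ephb4 at -0.85 (adjusted p = 0.00039). With IPC+IRI replicate 1 left out, 5 were lower and 1 was higher, against 16% and 23.9% of all genes, with a median of -0.67. In IRI vs Control 2 rose and 2 fell, against 17.1% and 33.9% of all genes, with Hes1 at 0.70 (adjusted p = 0.011) and Dll1 at -0.61 (adjusted p = 0.0035). Jag1 was also lower in IRI+Hemin vs IRI by -1.28 (adjusted p = 1.1e-05), with an interaction of -0.83 (adjusted p = 0.028).

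Of 16 tested transcription factor genes of endothelium, 3 rose and 5 fell in IRI vs Control (median -0.13), against 17.1% and 33.9% of all genes and their median of -0.17. Ets2 rose by 2.60 (adjusted p = 1.2e-07) and Klf4, which responds to flow, by 2.20 (adjusted p = 4.4e-06). Lyl1 changed by -1.31 (adjusted p = 0.003) and Nr2f2, a factor of venous identity, by -1.01 (adjusted p = 0.00024). Among 7 tested Sox genes outside the SoxF group, 1 rose and 3 fell in IRI vs Control, against the same shares of all genes. Sox9, named after its values were seen since it was well above background on 3 of 4 Control arrays, ran from -5.13 to -4.45 in Control and from -0.15 to 1.01 in IRI, higher by 5.26 (adjusted p = 4.0e-09). Those that fell include Sox6 at -0.74 (adjusted p = 0.0016) and Sox13 at -0.52 (adjusted p = 0.045). Sox12 was called in the interaction, but it was well above background on 0 of 4 IRI arrays, so no size is given.

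Of the markers of other cells, many were not called in IRI vs Control. The summed linear level of 8 leukocyte markers ran from 1.66 to 2.06 in Control, from 1.84 to 2.90 in Hemin, from 5.07 to 9.98 in IRI, from 3.93 to 11.6 in IRI+Hemin and from 7.61 to 21.3 in IPC+IRI. Without the neutrophil genes S100a8 and S100a9, the sum of the other 6 was 1.21 to 1.68 in Control, 2.04 to 2.68 in IRI and 1.37 to 2.29 in IPC+IRI. In IRI vs Control 3 of 7 tested rose and 1 fell, against 17.1% and 33.9% of all genes, with S100a9, a calcium-binding protein, at 3.68 (adjusted p = 1.9e-05) and Cd68 of macrophages at 2.23 (adjusted p = 1.8e-05). Against the same shares, 2 of 5 platelet markers rose, Pf4 by 1.44 (adjusted p = 0.00058) and Ppbp by 1.03 (adjusted p = 0.017). In the mural list 2 of 6 genes rose, Tagln by 0.86 (adjusted p = 7.9e-05) and Acta2 by 0.54 (adjusted p = 0.00075). Of the 6 mural genes 3 were lower in IPC+IRI vs IRI, Tagln and Acta2 among them (-0.87 and -0.66), and 2 of 6 without IPC+IRI replicate 1, where 17.8% and 16% of all genes were lower. Cdh5, Plvap, Egfl7, Mcam, Ehd3, Ptprb, Tgfb1, Acvrl1, Dll1, Jag1, Hes1, Ephb4, Tagln and Acta2 each kept its call and direction in IPC+IRI vs IRI without that array.

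No marker of the tubule was called higher in IRI vs Control. In IRI vs Control 2 of 6 proximal tubule markers fell, a share near the 33.9% of all genes, the endocytosis receptors Lrp2 (-0.95, adjusted p = 7.4e-07) and Cubn (-0.54, adjusted p = 0.0087), and 4 of 4 thick limb and distal markers were not called. Among 4 lymphatic markers 2 rose and 1 fell in IRI vs Control, against 17.1% and 33.9% of all genes. Prox1 was at -1.89 (adjusted p = 4.3e-05) and Pdpn at 0.49 (adjusted p = 0.0057), and Lyve1 was well above background on 11 of 20 arrays. Against Control, 3 of the 3 lymphatic markers tested in IPC+IRI were lower (median -1.50), where 32.8% of all genes were. Without IPC+IRI replicate 1 it was 2 of 4 with 1 higher (median -0.76), against 31.3% and 23% of all genes. Against IRI, 2 of 4 were lower in IPC+IRI and 0 higher, where 17.8% of all genes were lower and 26.3% higher. Their median was -0.64, or -0.41 without that array, with Pdpn at -0.88 (adjusted p = 7.9e-05) and Prox1 at 0.13 (adjusted p = 0.73). The summed linear level of the 4 was 0.341 to 0.483 in Control, 0.321 to 0.458 in IRI and 0.239 to 0.275 in IRI+Hemin. It was 0.278 to 0.352 in Hemin and 0.167 to 0.258 in IPC+IRI. Whether these 4 genes come from lymphatic cells in these kidneys was not tested. The part of any of these cells in the levels of the 10 genes was not tested.

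The median SD of the 10 genes over the arrays of a group was 0.49 in IPC+IRI, where that of 16264 genes well above background on at least 16 arrays was 0.22. The IPC+IRI value includes replicate 1, which lay below the mean of the rest of its group for all 10 genes, and it was not computed without that array. In the other groups the median SD of the 10 genes lay between 0.19 and 0.28, where the other genes had 0.14 to 0.21. Over the 20 arrays the pairs most alike among the 10, by the root mean square difference of centred log2 levels, were Kdr and Eng (0.33), Tie1 and Eng (0.33) and Kdr and Flt1 (0.38). This distance grows with a gene's own spread, which was 0.32 for Kdr and 0.34 for Eng as a root mean square over the arrays, about as large as the distance between them. Among 16263 other genes, Sema6d was closest to Sox7 (0.25), followed by Smox and Chic2 (0.30 each), and the mean level of Sema6d was -0.72 in IRI, -1.42 in IRI+Hemin and -1.90 in IPC+IRI, beside -2.14 in Control and -2.09 in Hemin. The closest to Sox17 were Prkaa1 (0.22), Myd88 (0.23) and Ddef2 (0.24). The closest to Sox18 were AK085773 and 6230427J02Rik (0.72 each). The spread of Sox18 itself was 1.45, that of Sox7 0.62 and that of Sox17 0.33, so distances are not set against each other between genes. These distances are descriptions over 20 arrays that share groups and slides.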

How the data were processed

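Kidney RNA labelled with Cy3 was measured on 20 arrays in 5 groups, taken from the sample labels. The authors deposited each array's intensity values as read by Agilent Feature Extraction 9.5.3.1, where the processed signal of a spot has its background subtracted, with no normalization between arrays. The authors also deposited a matrix of log2 values of this signal, with 33825 of the 41174 probes present, used as an alternative. The scanner software's calls of spots well above background were read from the deposited files.

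Spots marked as uneven or outliers were removed, the remaining spots were averaged per probe, the 75th percentile of non-control probes served as each array's divisor, probes sharing a gene name were averaged and the log2 was taken. A gene was tested with at most 1 missing value and with 3 of 4 arrays of either group well above background. All 20 arrays entered 1 model in limma 3.58.1 (R 4.3.3), with 5 group means (15 residual degrees of freedom). The Benjamini-Hochberg adjustment ran over all genes within each of 10 comparisons, 1 of which (IPC+IRI vs IRI+Hemin) was added after the data were seen. The same fit was run on single probes. Names of all 10 genes matched the reference table of GRCm38.p6. In simulated data for IRI vs Control with 14532 genes, the fit recovered 83% of 100 genes changed 2-fold and 99% of 100 changed 4-fold, with 7 false calls. The simulation used normal noise and genes well above background on all 20 arrays. It changed few genes and held no slide or scaling effects, so these rates need not hold for the real arrays.

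The genes and lists were chosen with earlier results of these data known. Named list genes are the up to 4 with the largest called change in IRI vs Control among those above background on all 8 arrays, those called in the interaction, and the endothelial genes, which are drawn in a figure. The 12 alternative settings were normexp background correction (offset 50), quantile normalization, no normalization between arrays, the brightest probe or the mean of log2 over probes in place of the mean, scaling by probes well above background, a strict filter or no filter, the deposited log2 matrix, the replicate number as a block, a fit with only the compared arrays, and SAM over 70 permutations, which was not run for the interaction. Each array was also left out in turn, and the gene lists were recounted without IPC+IRI replicate 1, a choice made after the data were seen. The number of arrays limits the precision. Serum creatinine and PCR were not analysed here.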

Additional observations from a re-analysis of the deposited data

Results flagged for a closer look

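Within groups of 4 arrays, 4 of the 50 sets of values had a lone array at one end by Dixon's 95% criterion, where chance gives about 1 in 20. IRI replicate 2 had a Sox18 level of -2.32, far below the nearest IRI array at -0.53. IPC+IRI replicate 1 had a Flt1 level of 0.69, below the nearest at 1.63, and this array was low for nearly all endothelial genes. IRI replicate 3 had a Sox7 level of -1.56, where the nearest was -1.82, and Hemin replicate 2 had a Nos3 level of -1.49, where the nearest was -1.37, both within narrow groups. The effect of IRI on Sox7 differed with hemin by -1.24, in limma's interaction of hemin and IRI.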

How the results depend on the processing

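Over the alternative settings, 1053 of the members' values kept their side of the threshold, among them 60 uncalled values that changed sign, 104 lost a call in the same direction, 28 gained one and 1 called value turned, Flt1 in IPC+IRI vs Control with the mean of log2 over probes (-0.19). Counts of called members moved by over 1.5 times as follows, and the cause was not tested. With SAM, the count was 3 in IRI vs Control, 1 in IRI+Hemin vs Control, 2 in IPC+IRI vs Control, 1 in IRI+Hemin vs IRI, 1 in IPC+IRI vs IRI, 1 in IRI+Hemin vs Hemin, 2 in IPC+IRI vs Hemin and 0 in IPC+IRI vs IRI+Hemin, where limma called 4 and 8 had an unadjusted p under 0.05. With normexp background correction it was 3 in IRI vs Control, 5 in IRI+Hemin vs IRI, 3 in IPC+IRI vs Hemin, 1 in IPC+IRI vs IRI+Hemin and 0 in the interaction. Without normalization between arrays it was 2 in IRI vs Control, 1 in Hemin vs Control, 2 in IPC+IRI vs IRI, 1 in IRI+Hemin vs Hemin, 3 in IPC+IRI vs Hemin, 1 in IPC+IRI vs IRI+Hemin and 0 in the interaction. With the deposited log2 matrix it was 3 in IRI vs Control, 1 in IRI+Hemin vs IRI, 1 in IRI+Hemin vs Hemin, 3 in IPC+IRI vs Hemin and 0 in the interaction. With the compared arrays alone it was 1 in Hemin vs Control, 5 in IRI+Hemin vs Hemin, 1 in IPC+IRI vs IRI+Hemin and 2 in the interaction. With the mean of log2 over probes it was 1 in Hemin vs Control, 1 in IRI+Hemin vs IRI and 5 in IRI+Hemin vs Hemin. Scaling by probes well above background gave 1 in Hemin vs Control. Without a filter it was 3 in IRI vs Control and 2 in IPC+IRI vs IRI+Hemin.

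Leaving out each array in turn gave 3 to 5 called members in IRI vs Control, 4 to 6 in IRI+Hemin vs Control, 5 to 7 in IPC+IRI vs Control, 0 to 2 in Hemin vs Control, 3 to 4 in IRI+Hemin vs IRI, 4 to 7 in IPC+IRI vs IRI, 1 to 3 in IRI+Hemin vs Hemin, 3 to 5 in IPC+IRI vs Hemin, 2 to 6 in IPC+IRI vs IRI+Hemin and 0 to 1 in the interaction.

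Deviations of same-numbered arrays correlated from -0.38 to 0.21. The correlation was over 0.1 in 3 of 4 number pairs of Control and IRI and in 2 of 4 of IRI+Hemin and IPC+IRI, but in no pair of groups for all 4, so the numbers were not taken to pair samples. With the replicate number as a block the count was 2 in IPC+IRI vs IRI+Hemin, 4 in IRI vs Control, where Sox18 lost its call (adjusted p = 0.064), and 5 in IPC+IRI vs IRI. The deposited log2 matrix gave no value for Tie1 in comparisons where it lacked more than 1 array, and SAM was not run on the interaction. The slide as a random block was not run, since it could not be fitted with each group on its own slide.

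The scaling bears on the direction of change. The median of all genes in IPC+IRI vs IRI was 0.09, and without normalization between arrays it was 0.41. Of the calls over all genes, 33.48% were higher in IRI vs Control, and 56.15% with normexp background correction. In IPC+IRI vs IRI 59.55% were higher, 48.88% with normexp background correction and 90.74% without normalization between arrays.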
